A study of Mus musculus with 21 samples.

Results

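The genes described are 8 members of the epithelial-mesenchymal transition (EMT) program: the zinc finger repressors Snai1 and Snai2, the zinc finger homeobox repressors Zeb1 and Zeb2, the basic helix-loop-helix (bHLH) factors Twist1 and Twist2, the homeobox factor Prrx1 and the intermediate filament gene Vim. They were taken by name, as the rows whose Ensembl gene ID maps to these symbols, and make up 8 of the 55487 genes counted. RNA was sequenced from sorted cells of mouse embryoid bodies, spheres of differentiating embryonic stem cells, on day 4. The sort used the surface receptors PDGFRalpha and FLK1, encoded by Pdgfra and Kdr. Cells with both receptors are called DP (double positive) and FLK1+ cells without PDGFRalpha are called SP (single positive). The first set comes from the line T-GFP; Etv2-tdTomato, which carries reporters for T, a gene of nascent mesoderm, and for Etv2, an ETS transcription factor required for endothelium and blood. Its DP and SP cells were each split into tdTomato-negative and tdTomato-positive cells, here Etv2-negative and Etv2-positive. The second set holds DP and SP cells of the wildtype (WT) line A2lox.Cre, and SP cells of a line with doxycycline-inducible Etv2 (iEtv2) that received doxycycline at 2 µg per ml from day 2.5. Whether the WT cells received doxycycline is not given in the labels, so the line, the drug and Etv2 induction cannot be told apart. All cells had been kept on mouse embryonic fibroblast feeders and then moved off them before differentiation. There were 21 libraries, 3 for each of the 7 groups. The labels do not say whether these came from separate cultures, so p-values measure the spread between these libraries, which may be technical.

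EMT is the change by which cells of a sheet lose their junctions, detach and become motile, and mesoderm forms by such a change at the primitive streak. Snail, Zeb and Twist factors bind E-box sequences in regulatory DNA; Snail and Zeb factors repress epithelial genes such as Cdh1, which encodes the junction protein E-cadherin. Snai1 is required in the mouse for mesoderm cells to switch off E-cadherin as they leave the streak. Vim encodes vimentin, the filament protein of mesenchymal and endothelial cells. The design asks how these genes differ with Etv2 reporter activity, with the PDGFRalpha gate, and after Etv2 is induced.

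Library totals ranged from 25045553 to 32777143 counts in the reporter line and from 22406153 to 28184904 counts in the second set. Pseudogenes took 12.2 to 14.4% of counts in the first set and 0.549 to 0.636% in the second; the cause of this gap was not tested. Levels, given as CPM (a gene's share of the library's counts, scaled to a fixed total) with TMM-scaled library sizes, are compared only within a set. Etv2 RNA was 2.89-fold higher in Etv2-positive than Etv2-negative DP cells and 3.34-fold higher in SP cells, and Pdgfra was 4.9-fold, 4-fold and 7.96-fold lower in SP than DP cells without the reporter, with it and in WT. In iEtv2 SP, Etv2 was 2.55-fold above WT SP (239 ± 10.2 against 93.6 ± 22.4 CPM, mean ± SD). Within that same gate Pdgfra was 5.93-fold lower in iEtv2 SP (6.74 ± 3.55 against 40 ± 7.75 CPM). Kdr stood between 340.2 and 631.2 CPM in the reporter line and between 683.2 and 1016 CPM in the second set. By the edgeR quasi-likelihood test it was lower with the reporter in DP (log2 -0.42 ± 0.12, adjusted p = 0.0158). Among Etv2-positive cells it was higher in SP than DP (0.46 ± 0.12, adjusted p = 0.0215). No other comparison called it. Of the reporter line, replicate 2 of Etv2-negative SP and replicate 3 of Etv2-positive SP had a ribosomal RNA share over 1% (1.28 and 1.17%), against 0.146 to 0.338% in the other 10 libraries; where a call of a member or of Cdh1, Cdh2, Epcam or Fn1 ended without this pair, or a count over a gene list moved by over 1.5 times, that value is given.

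Promoter windows, the 250 bases before the transcription start, were examined for 6 of the 8 members, all but Snai2 and Zeb1, from RefSeq (GRCm38.p6). They are shown for Snai1 and Twist1, which were lower in SP than DP cells, for Zeb2, which rose with the reporter, and for Epcam, an epithelial adhesion gene, because these promoters differ in their E-boxes. Capitals mark the E-box CAGGTG, or CACCTG where it lies on the other strand. The Snai1 window is chr2:167537945-167538194 on the plus strand, that of Twist1 is chr12:33957421-33957670 on the plus strand, the one nearest the annotated 5′ end of Zeb2 is chr2:45117443-45117692 on the minus strand, and that of Epcam is chr17:87635729-87635978 on the plus strand.
Snai1: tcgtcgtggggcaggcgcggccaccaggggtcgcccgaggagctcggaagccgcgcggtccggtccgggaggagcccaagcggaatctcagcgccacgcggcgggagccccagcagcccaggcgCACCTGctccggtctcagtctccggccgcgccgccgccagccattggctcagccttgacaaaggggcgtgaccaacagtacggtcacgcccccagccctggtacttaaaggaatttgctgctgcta
Twist1: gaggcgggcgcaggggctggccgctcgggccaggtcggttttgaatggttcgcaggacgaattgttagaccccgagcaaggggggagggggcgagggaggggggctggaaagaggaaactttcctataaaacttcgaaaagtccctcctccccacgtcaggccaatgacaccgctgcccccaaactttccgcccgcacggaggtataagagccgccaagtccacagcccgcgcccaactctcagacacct
Zeb2: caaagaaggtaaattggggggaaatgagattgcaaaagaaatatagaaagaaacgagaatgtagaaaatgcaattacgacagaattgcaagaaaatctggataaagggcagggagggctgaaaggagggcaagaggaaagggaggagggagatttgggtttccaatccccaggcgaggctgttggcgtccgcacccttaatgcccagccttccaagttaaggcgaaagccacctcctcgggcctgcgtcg
Epcam: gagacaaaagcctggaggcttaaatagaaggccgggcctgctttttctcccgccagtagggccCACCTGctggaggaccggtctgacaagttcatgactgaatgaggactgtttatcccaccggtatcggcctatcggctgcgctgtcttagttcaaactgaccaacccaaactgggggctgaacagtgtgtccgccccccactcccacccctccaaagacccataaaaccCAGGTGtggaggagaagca
The Snai1 window held 1 E-box, whose first base is 126 bases before the start. The Epcam window held 2, at 187 and 19 bases before the start, while the windows of Twist1, Twist2, Prrx1, Vim and all 4 starts of Zeb2 held none. Of 32851 promoter windows of the same length, 17.2% held this E-box. The sequence CCGGAA (or TTCCGG), the core of many ETS sites, was searched on both strands too: 12% of windows held it. Among the members examined it was found once, 106 bases before the Vim start, and Snai2 and Zeb1 were not searched. A match is a description of these letters and not evidence of binding.

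Snai1 was lower in Etv2-positive than Etv2-negative cells and lower in SP than DP cells. This gene (ENSMUSG00000042821; mm10 chr2:167538195-167542814, plus strand, protein coding) stood at 156, 143 and 106 CPM in the 3 libraries of Etv2-negative DP cells. It was at 55.2, 51.3 and 39.1 CPM in Etv2-positive DP cells, at 55.4, 60.6 and 48.5 in Etv2-negative SP cells and at 33.4, 31.8 and 21.6 in Etv2-positive SP cells. The first of these groups lies above all the others and the last below them, while the 2 in the middle overlap. The reporter difference was -1.48 ± 0.18 (log2 fold change ± SE) in DP cells, a 2.78-fold lower level (edgeR quasi-likelihood test, Benjamini-Hochberg adjusted p = 6.21e-05), and -0.92 ± 0.18 in SP cells (adjusted p = 0.00292). Between the gates the difference was -1.30 ± 0.18 without the reporter (adjusted p = 0.000776) and -0.75 ± 0.18 with it (adjusted p = 0.0169). The last of these calls did not hold without replicate 1 of Etv2-positive DP (adjusted p = 0.0563), replicate 3 of Etv2-positive SP (0.0598) or the pair of high ribosomal RNA share (0.0683). In bulk RNA, fewer cells that express a gene and less RNA per cell cannot be told apart.

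The second set gave the same order for Snai1. WT DP libraries held 170.4, 171 and 196 CPM, WT SP libraries 50.7, 54.7 and 71.5 CPM, and iEtv2 SP libraries 8.90, 18.6 and 10.9 CPM. No library of one group reached the range of the next. WT SP was 3.04-fold below WT DP (log2 -1.60 ± 0.21, adjusted p = 0.000645), and iEtv2 SP was 4.61-fold below WT SP (-2.21 ± 0.23, adjusted p = 1.86e-05). The induced difference lay between -2.56 and -1.99 when each library was left out in turn.

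Markers of paraxial mesoderm (Tbx6, Msgn1, Mesp2, Meox1, Tcf15 and Dll1), a fate made from the same streak cells, moved with Snai1 in the reporter line as a sum, though not each of them. Their summed level was 59.3 to 77.7 CPM in Etv2-negative DP cells, 8.83 to 12.6 in Etv2-positive DP cells, 14.2 to 25.0 in Etv2-negative SP cells and 5.35 to 6.27 in Etv2-positive SP cells. In the second set the sums were 98.8 to 113 CPM in WT DP, 19.5 to 28.1 in WT SP and 11.6 to 17.7 in iEtv2 SP. With the reporter 5 of the 6 were called lower and 1 higher in DP, and 4 lower and 1 higher in SP. In each of the 3 gate comparisons 3 were lower, and after induction 4 were lower and 1 higher. Of all genes, 14.7% and 12.4% were lower with the reporter in DP and SP. Between the gates 4.84%, 6.94% and 6.76% were lower, and after induction 24.4%. All 6 markers passed the floor of 3 counts in at least 1 library of each group, and their part in the Snai1 differences was not tested.

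Snai2 (Slug; ENSMUSG00000022676, mm10 chr16:14705852-14709385, plus strand), the close relative of Snai1 best known from neural crest, was a low gene with wide spread. Etv2-negative DP libraries held 1.69, 2.80 and 10.3 CPM and Etv2-positive DP libraries 9.71, 9.93 and 22.9 CPM; in both groups replicate 3 stood far above the other 2. Etv2-negative SP libraries held 5.02, 4.71 and 9.62 CPM and Etv2-positive SP libraries 2.95, 3.15 and 3.87 CPM. The SP groups do not overlap, and the DP groups do. Snai2 was called higher with the reporter in DP cells (1.53 ± 0.52, adjusted p = 0.0404), but not without replicate 1 or 2 of Etv2-negative DP (adjusted p = 0.129 and 0.147), replicate 3 of Etv2-positive DP (0.195) or the pair of high ribosomal RNA share (0.0505), nor when only those groups entered the fit (0.0868) or with DESeq2 (0.0603). In SP cells the reporter difference was -0.95 ± 0.56 (adjusted p = 0.234). It was called in 4 of 16 alternative runs: only those groups in the fit (0.0315), no filter (2.24e-08), the replicate block (0.0287) and without the libraries numbered 3 (0.0426). The gate difference with the reporter was -2.10 ± 0.54 (adjusted p = 0.0236) and missed the threshold without replicate 3 of Etv2-positive DP or any 1 of the Etv2-positive SP libraries (adjusted p up to 0.0868), and without the pair of high ribosomal RNA share (0.0687). Markers of neuroectoderm and neural crest summed to 30.2 to 36.8 CPM in Etv2-negative DP and to 79.7 to 96.3 CPM in Etv2-positive DP. In DP 1 of 3 tested was higher and 1 lower with the reporter, where 16% and 14.7% of all genes were. Foxd3 and Tfap2b were under 3 counts in every Etv2-positive DP library. In SP the sums were 37.2 to 68.9 CPM without the reporter and 69.7 to 112 CPM with it. Nes, also counted as a mesenchymal gene below, made up most of the Etv2-negative sums and of the Etv2-positive SP sum. It held 30 ± 3.22 CPM in Etv2-negative DP, 52.4 ± 15.7 in Etv2-negative SP and 92 ± 21.3 in Etv2-positive SP (mean ± SD). The part of these markers in the Snai2 levels was not tested.

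In the second set Snai2 stood at 1.68, 1.39 and 0.677 CPM in WT DP, at 2.43, 1.71 and 1.57 CPM in WT SP and at 1.19, 0.915 and 1.12 CPM in iEtv2 SP. The WT groups overlap, with a gate difference of 0.60 ± 0.31 (adjusted p = 0.245). The call in iEtv2 SP (-0.83 ± 0.32, adjusted p = 0.0483) was lost without any 1 of the 6 libraries compared (adjusted p = 0.0563 to 0.189).

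Zeb1 and Zeb2, repressors with zinc fingers at both ends, rose with the reporter in both gates, where Snai1 fell. Zeb1 (ENSMUSG00000024238, mm10 chromosome 18) was at 27.8, 30.1 and 35.8 CPM in Etv2-negative DP and at 36.2, 46.6 and 47.2 CPM in Etv2-positive DP. In SP cells it was at 35.8, 32.7 and 40.9 CPM without the reporter and at 47.5, 46.0 and 50.4 CPM with it. Each Etv2-positive group lies above its Etv2-negative partner. The reporter differences were 0.47 ± 0.12 in DP (adjusted p = 0.0082) and 0.40 ± 0.12 in SP (adjusted p = 0.024). The second was lost without replicate 1 or 2 of Etv2-negative SP (adjusted p = 0.0806 and 0.104), without replicate 1 or 3 of Etv2-positive SP (0.0612 and 0.0751) and without the pair of high ribosomal RNA share (0.201).

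In the second set Zeb1 stood at 33.9, 32.5 and 38.7 CPM in WT DP, at 43.4, 40.0 and 35.0 CPM in WT SP and at 61.2, 76.3 and 75.6 CPM in iEtv2 SP. The WT groups overlap, and every iEtv2 library lies above them. The induced level was 1.8-fold that of WT SP (0.85 ± 0.11, adjusted p = 0.000105). No gate difference of Zeb1 was called: 0.22 ± 0.12 without the reporter, 0.15 ± 0.12 with it and 0.17 ± 0.11 in WT (adjusted p = 0.264, 0.431 and 0.363). A noncoding gene on the other strand, Gm10125, shares 198 exon bases with Zeb1 and had at most 17 counts in a library.

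Zeb2 (ENSMUSG00000026872; mm10 chr2:44983632-45117395, minus strand) had its highest level of the reporter line in Etv2-positive SP cells. Libraries held 58.9, 63.3 and 63.1 CPM in Etv2-negative DP, 66.6, 82.9 and 86.9 CPM in Etv2-positive DP, 73.7, 72.4 and 69.0 CPM in Etv2-negative SP, and 112, 115 and 124 CPM in Etv2-positive SP. The Etv2-positive SP libraries stand clear above all 9 others, which is the reverse of Snai1. With the reporter, Zeb2 was higher by 0.35 ± 0.09 in DP (adjusted p = 0.00716) and by 0.70 ± 0.08 in SP (adjusted p = 0.000136). The DP call was lost without the libraries numbered 3 (0.29, adjusted p = 0.0599). Among Etv2-positive cells SP was 1.48-fold above DP (0.57 ± 0.08, adjusted p = 0.00136); among Etv2-negative cells the difference was 0.21 ± 0.09 (adjusted p = 0.134).

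In the second set Zeb2 was at 62.9, 75.4 and 86.2 CPM in WT DP, at 103, 105 and 82.9 CPM in WT SP and at 107, 116 and 109 CPM in iEtv2 SP. The gate difference in WT was 0.38 ± 0.12 (adjusted p = 0.055), and the induced difference 0.19 ± 0.12 (adjusted p = 0.217). The 3 iEtv2 SP libraries lie just above those of WT SP, and neither difference was called in the main fit. The gate difference was called in 6 of 14 alternative runs: DESeq2 (adjusted p = 0.021), RLE scaling (0.048), no filter (0.00153), the replicate block (0.048), and without replicate 3 of WT DP (0.0264) or of WT SP (0.0324). The antisense gene Zeb2os shares 653 exon bases with Zeb2 and had at most 40 counts in a library; with the strand setting not given, reads in the shared bases cannot be assigned to one of them.

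Twist1 (ENSMUSG00000035799; mm10 chr12:33957671-33959829, plus strand), a bHLH factor that acts as a dimer with E proteins or Hand factors, followed the PDGFRalpha gate. It stood at 30.5, 26.2 and 26.6 CPM in Etv2-negative DP and at 23.3, 24.2 and 24.3 CPM in Etv2-positive DP. Etv2-negative SP libraries held 13.9, 14.2 and 12.9 CPM and Etv2-positive SP libraries 15.3, 18.8 and 15.4 CPM. All 6 DP libraries lie above all 6 SP libraries. The gate difference was -1.02 ± 0.09 without the reporter (adjusted p = 8.65e-05) and -0.54 ± 0.09 with it (adjusted p = 0.00276). The reporter differences were small and of opposite sign, -0.21 ± 0.09 in DP (adjusted p = 0.0912) and 0.27 ± 0.09 in SP (adjusted p = 0.0509). The SP difference was called with DESeq2 (0.0435), RLE scaling (0.0484) and the replicate block (0.0435).

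WT cells showed the same gate difference: 29.5, 25.7 and 23.2 CPM in DP against 14.2, 13.8 and 16.5 CPM in SP (-0.82 ± 0.12, adjusted p = 0.00129). In iEtv2 SP Twist1 fell further to 7.67, 8.58 and 7.07 CPM, below every other library of its set. That level was 1.91-fold under WT SP (-0.93 ± 0.13, adjusted p = 0.000133).

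Twist2 (ENSMUSG00000007805; mm10 chr1:91801461-91848028, plus strand), its paralog, was near 1 to 6 CPM in the reporter line. Libraries held 1.33, 1.93 and 3.13 CPM in Etv2-negative DP, 2.50, 3.26 and 5.73 CPM in Etv2-positive DP, 1.65, 2.37 and 2.25 CPM in Etv2-negative SP and 1.70, 1.56 and 1.95 CPM in Etv2-positive SP. With the reporter in DP the difference was 0.85 ± 0.32 (adjusted p = 0.0589), and 6 of 16 alternative runs called it, among them DESeq2 (0.0381). Only the Etv2-positive DP and SP groups fail to overlap among the pairs compared in the reporter line. That gate difference was -1.15 ± 0.33 (adjusted p = 0.0342), and it was lost without replicate 3 of Etv2-positive DP (adjusted p = 0.141), without any 1 of the Etv2-positive SP libraries (0.0686 to 0.103), without the pair of high ribosomal RNA share (0.0849) without the libraries numbered 3 (0.0848) and with only those groups in the fit (0.0546).

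The largest Twist2 difference was in the second set. WT DP libraries held 1.10, 0.715 and 0.541 CPM and WT SP libraries 1.02, 1.25 and 1.10 CPM, which overlap, while iEtv2 SP libraries held 0, 5 and 1 counts. Pooled, iEtv2 SP had 6 counts against 85 in WT SP, and the level in WT SP was 14.7-fold higher (95% interval 6.46 to 41.1, counting error only). The edgeR quasi-likelihood test gave an induced difference of -3.85 ± 0.6 (adjusted p = 0.000326). The antisense gene Gm29100 shares 1477 exon bases with Twist2 and had at most 23 counts in a library, so the 2 cannot be kept apart in that stretch.

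Prrx1 (ENSMUSG00000026586; mm10 chr1:163245119-163313710, minus strand), a homeobox gene of limb and lateral mesenchyme, was called only after induction. Reporter-line libraries lay between 1.29 and 2.19 CPM apart from replicate 3 of Etv2-negative DP at 4.07 CPM, and none of the comparisons there was called (adjusted p = 0.277 to 0.982). WT DP libraries held 2.17, 1.98 and 1.44 CPM, WT SP libraries 1.73, 2.32 and 1.66 CPM, and iEtv2 SP libraries 0.422, 1.10 and 0.677 CPM. Every iEtv2 library is below every WT library. The level was 2.58-fold lower than in WT SP (-1.37 ± 0.33, adjusted p = 0.00491).

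Vim (ENSMUSG00000026728; mm10 chr2:13573927-13582826, plus strand) was the most abundant member and was lowest in DP cells with little Etv2. It stood at 501, 564 and 703 CPM in Etv2-negative DP, at 935, 924 and 953 CPM in Etv2-positive DP, at 765, 854 and 792 CPM in Etv2-negative SP and at 844, 887 and 768 CPM in Etv2-positive SP. All Etv2-negative DP libraries are below the 9 others. The reporter difference in DP was 0.67 ± 0.10 (adjusted p = 0.000297) and in SP 0.05 ± 0.10 (adjusted p = 0.744). These differ by -0.62 ± 0.14 (adjusted p = 0.0337), a call lost without any 1 of 9 of the 12 libraries, all but replicate 3 of Etv2-negative DP and replicates 1 and 2 of Etv2-positive DP (adjusted p = 0.053 to 0.098), and without the pair of high ribosomal RNA share (0.118). The gate difference was 0.45 ± 0.10 without the reporter (adjusted p = 0.0127), lost without replicate 1 or 2 of Etv2-negative DP (0.0614 and 0.0619), and -0.17 ± 0.10 with it (adjusted p = 0.273).

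In WT cells Vim was again lower in DP, at 678, 595 and 489 CPM, than in SP, at 999, 839 and 909 CPM (0.64 ± 0.12, adjusted p = 0.00392). Libraries of iEtv2 SP held 974, 1068 and 915 CPM and overlap those of WT SP (0.11 ± 0.12, adjusted p = 0.47). Endothelial markers, whose cells also make vimentin, summed to 20.1 to 28.5 CPM in Etv2-negative DP, 41.8 to 65.05 in Etv2-positive DP, 30.8 to 53.2 in Etv2-negative SP and 120 to 229 in Etv2-positive SP. In the second set they summed to 16.0 to 25.2 CPM in WT DP, 134 to 194 in WT SP and 1689 to 2101 in iEtv2 SP. The part of these cells in the Vim levels was not tested.

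**Figure D1:**
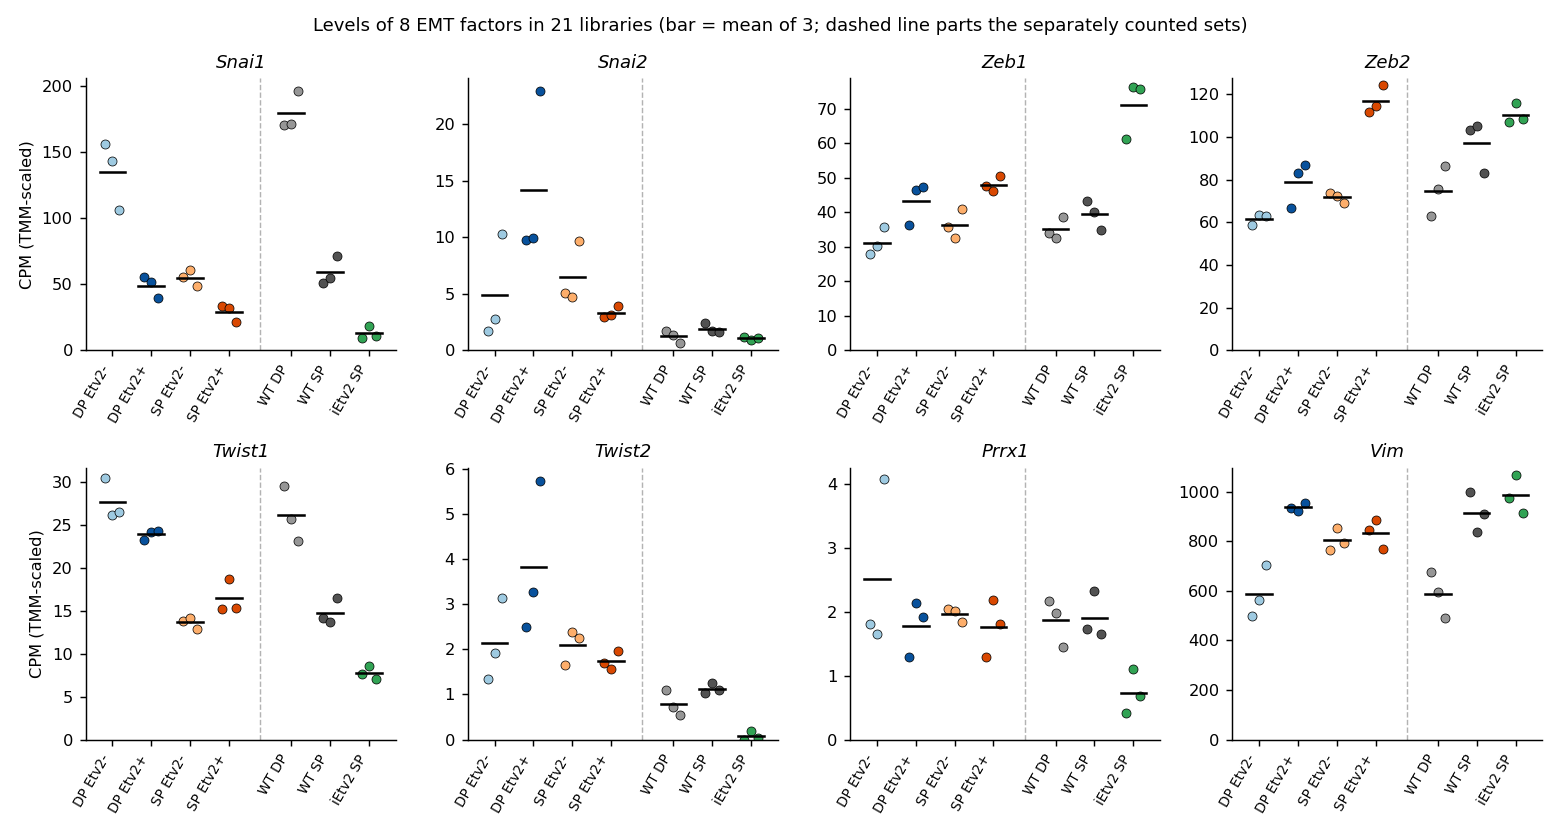
Level of each member in CPM (y axis, a scale of its own per panel, from 0) in every library (points) of the 7 groups, with bars for the mean of 3; the dashed line parts the 2 sets, which are not comparable in level. Snai1 falls from 106 to 156 CPM in Etv2-negative DP to 21.6 to 33.4 CPM in Etv2-positive SP, Zeb2 rises from 58.9 to 63.3 to 112 to 124 CPM, and Twist1 separates DP from SP.

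Counted together, the members did not move one way. With the reporter in DP cells, 4 of 8 were called higher (Snai2, Zeb1, Zeb2 and Vim) and 1 lower (Snai1), at an adjusted p below 0.05; of the 17690 genes tested, 16% were called higher and 14.7% lower. Their median log2 difference was 0.41, against 0 for all genes. Same-numbered libraries of the reporter groups deviated together, and with the number as a block Twist2 was called higher too (0.84, adjusted p = 0.00571), for 6 calls. With the reporter in SP cells, 2 members were called higher (Zeb1 and Zeb2) and 1 lower (Snai1), beside 13.1% and 12.4% of all genes, and their median was -0.05. There the block gave 5 calls, adding Twist1 as higher (0.27, adjusted p = 0.0435) and Snai2 as lower (-0.91, adjusted p = 0.0287). With upper-quartile scaling the split over all genes in SP was 1800 higher and 2653 lower, against 2314 and 2190 with TMM, and the 3 member calls held.

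Whether the reporter difference depended on the gate was tested as an interaction, the SP difference minus the DP difference. Of the 8 members 1 was called, Vim, lower, and 7 were not; over all genes 1.52% were called higher and 2.45% lower. At an unadjusted p below 0.05, 3 members were higher (Snai1, Zeb2 and Twist1) and 3 lower (Snai2, Twist2 and Vim). The estimate for Snai1 was 0.55 ± 0.25 (adjusted p = 0.24), for Zeb2 0.35 ± 0.12 (0.118), for Twist1 0.48 ± 0.13 (0.0571), for Snai2 -2.48 ± 0.76 (0.0876) and for Twist2 -1.12 ± 0.47 (0.203). With the replicate number as a block 5 were called: Vim (-0.62, adjusted p = 0.0137), Snai1 (0.53, 0.00913), Snai2 (-2.54, 0.00291), Twist1 (0.48, 0.0349) and Twist2 (-1.11, 0.0391). That block uses 1 number across both gates, and same-numbered libraries met the pairing criterion between reporter groups but not between gates.

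Between the gates, SP over DP, Snai1 and Twist1 were lower in all 3 comparisons. Without the reporter 1 member was called higher (Vim) and 2 lower, where 6.1% and 4.84% of genes were called. With the reporter 1 was called higher (Zeb2) and 4 lower (Snai1, Snai2, Twist1 and Twist2), where 6.95% and 6.94% of genes were called; without the pair of high ribosomal RNA share 2 calls were left, Zeb2 and Twist1. In WT 1 was called higher (Vim) and 2 lower, where 9.08% and 6.76% of the 16288 genes tested were called. The medians of the 8 were 0.09, -0.36 and 0.28. Gate and reporter comparisons of one line share libraries, so their values are not independent of each other.

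In iEtv2 SP against WT SP, 5 of 8 members were called lower (Snai1, Snai2, Twist1, Twist2 and Prrx1) and 1 higher (Zeb1), where 24.4% of genes were called lower and 26.4% higher. The median of the 8 was -0.88, against 0 over all genes. Without the Snai2 call, which any single library decided, 5 calls were left.

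**Figure D2:**
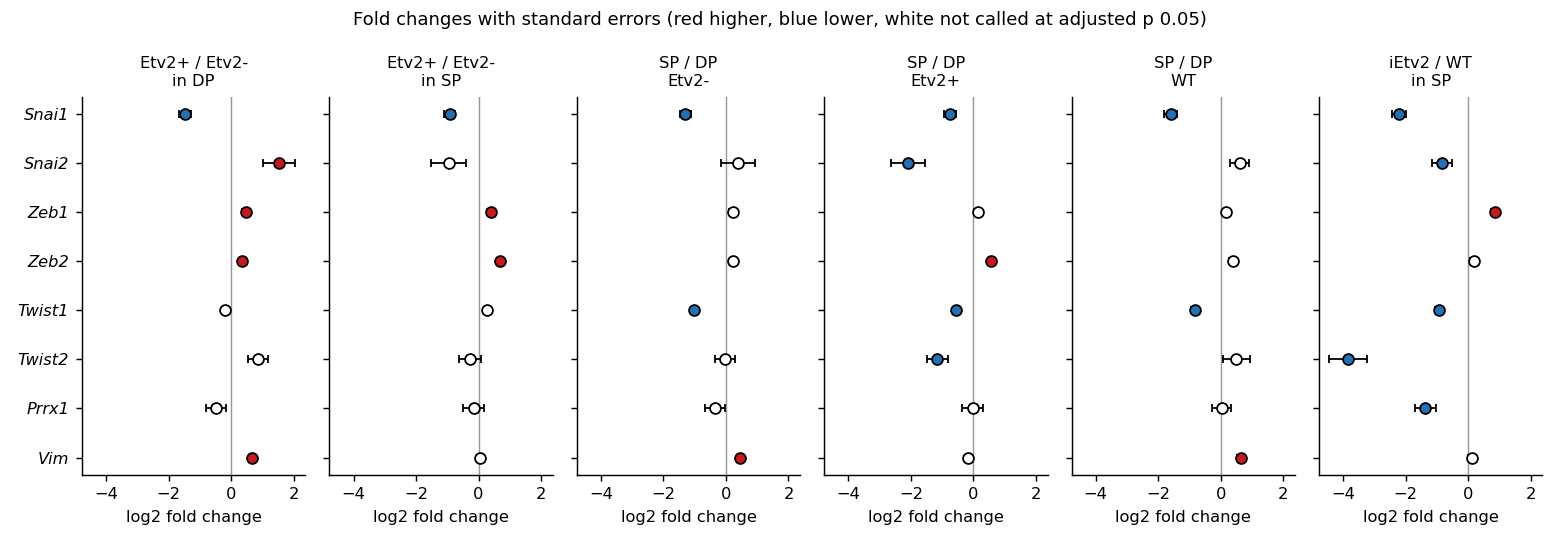
Log2 fold change of each member (x axis) with its standard error in the 6 comparisons of groups; red points were called higher, blue lower, and white points were not called. Snai1 is blue in every panel, from -0.75 to -2.21, and Zeb1 and Zeb2 lie at or right of 0 in all 6.

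Per kb of exon, which allows genes to be set side by side, Vim and Snai1 led in Etv2-negative DP with 124 ± 21.8 and 83.3 ± 16.0 CPM per kb (mean ± SD, n = 3). Twist1 followed with 17.1 ± 1.47 CPM per kb, then Zeb2 with 3.10 ± 0.127, Zeb1 with 3.04 ± 0.402 and Snai2 with 2.43 ± 2.31, which do not differ beyond their spread. Twist2, at 0.671 ± 0.288, and Prrx1, at 0.227 ± 0.122, came last. In Etv2-positive SP the lead of Snai1 over Zeb2 had narrowed to 17.9 ± 3.95 against 5.86 ± 0.330 CPM per kb. In iEtv2 SP Snai1, at 7.89 ± 3.17 CPM per kb, was within its spread of Zeb1, at 6.92 ± 0.831. These lengths cover all annotated exons; by the longest transcript instead, Zeb1 and Zeb2 stood at 12.3 and 12.1 CPM per kb in iEtv2 SP, above Snai1.

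A ratio of 2 genes within a library does not depend on library scaling. Its size does depend on the gene lengths used, here all annotated exons, though its order between libraries does not. By the longest transcript Zeb2 stood above Snai1 in iEtv2 SP (12.1 against 7.89 CPM per kb). The ratio of Snai1 to Zeb2 per kb was 32.7, 27.8 and 20.7 in Etv2-negative DP and 10.2, 7.62 and 5.54 in Etv2-positive DP. It was 9.25, 10.3 and 8.65 in Etv2-negative SP and 3.69, 3.42 and 2.14 in Etv2-positive SP. WT libraries gave 33.3, 27.9 and 28.0 in DP and 6.04, 6.39 and 10.6 in SP, and iEtv2 SP libraries gave 1.02, 1.97 and 1.23. The lowest and the highest groups of each set are far apart and the middle ones overlap in the reporter line. The ratio of Zeb2 to Zeb1 stayed between 0.739 and 1.36 in all 21 libraries; it was lower in iEtv2 SP (0.900, 0.782 and 0.739) than in WT SP (1.23, 1.36 and 1.22), since Zeb1 rose there and Zeb2 was not called.

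**Figure D3:**
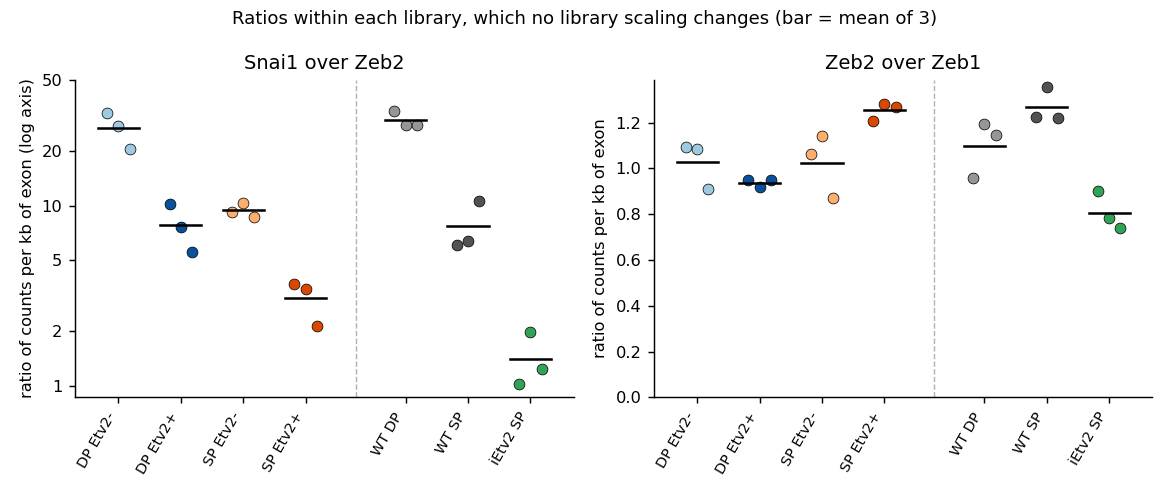
Ratio of Snai1 to Zeb2 (left, log axis) and of Zeb2 to Zeb1 (right, from 0) in counts per kb of exon for every library (points; bars are means of 3). The Snai1 to Zeb2 ratio drops from 20.7 or more in Etv2-negative and WT DP to 3.69 or less in Etv2-positive SP and 1.97 or less in iEtv2 SP. Lengths cover all annotated exons, and other lengths would shift all ratios of a panel alike.

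The genes whose pattern was most like that of a member were sought by Pearson's r of log2(CPM + 0.5) over the 12 reporter-line libraries, among genes of at least 5 CPM on average. Libraries of a group share their cell state, so r describes the group pattern and carries no test. For Snai1 the nearest were Efna3, an ephrin ligand, and Robo3, an axon guidance receptor (r = 0.992 and 0.991; 0.999 and 0.964 over the 9 other libraries). Zeb2 was nearest to Myo10, an unconventional myosin, and Cdc6, a replication licensing factor (0.994 and 0.983; 0.876 and -0.498 over the others). Vim was nearest to Fam129b and Rbpms2 (0.975 and 0.969; 0.956 and 0.269), and Zeb1 to Rap1gds1 and Fam126a (0.973 and 0.968; 0.798 and 0.907). Snai2 and Twist2 shared a neighbour, Dkk3 (0.965 and 0.956; -0.023 and 0.246), beside Adamts2 for Snai2 (0.965; 0.756) and Qsox1 for Twist2 (0.926; -0.566). Twist1 was nearest to Ccar2 and Depdc1b (0.951 and 0.942; -0.751 and 0.002), and Prrx1 to Tmem143 and Pxmp4 (0.815 and 0.780; 0.489 and -0.854). The likeness of Snai1, Zeb1 and the first neighbours of Zeb2, Vim and Snai2 thus held at r = 0.756 or more in the second set, and that of the others did not.

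The 4 classical readouts of EMT did not follow Snai1 alone. Cdh1 (E-cadherin) stood at 18.7, 17.3 and 23.2 CPM in Etv2-negative DP and at 10.3, 14.9 and 16.5 CPM in Etv2-positive DP. It was at 50.1, 31.1 and 24.5 CPM in Etv2-negative SP and at 28.0, 24.0 and 22.4 CPM in Etv2-positive SP. SP cells thus held more Cdh1 than DP cells, by 0.84 ± 0.23 without the reporter (adjusted p = 0.0337) and 0.83 ± 0.24 with it (0.0336), and Snai1 was lower there. The first call was lost without replicate 1 or 2 of Etv2-negative DP (adjusted p = 0.127 and 0.138) or replicate 1 of Etv2-negative SP (log2 0.50, 0.152), and the second without replicate 1 or 2 of Etv2-positive DP (0.115 and 0.0572), any 1 Etv2-positive SP library (0.0548 to 0.114) or the pair of high ribosomal RNA share (0.0678). With the reporter, where Snai1 was lower too, the Cdh1 differences were -0.50 ± 0.24 in DP and -0.51 ± 0.23 in SP and were not called (adjusted p = 0.127 and 0.119). WT libraries ranged from 36.4 to 112 CPM in DP and from 58.4 to 106 CPM in SP (0.11 ± 0.33, adjusted p = 0.875). In iEtv2 SP Cdh1 was at 273, 226 and 271 CPM, 3.29-fold above WT SP (1.72 ± 0.33, adjusted p = 0.00131).

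Epcam fell with the reporter and rose after induction. It was at 12.8, 13.4 and 17.1 CPM in Etv2-negative DP against 8.53, 8.13 and 7.31 CPM in Etv2-positive DP (-0.86 ± 0.12, adjusted p = 0.000165). In SP it was at 15.6, 17.1 and 14.9 CPM against 8.99, 8.98 and 8.09 CPM (-0.87 ± 0.12, adjusted p = 0.000289). In the second set it stood at 22.4, 30.1 and 23.7 CPM in WT SP and at 100.3, 82.6 and 93.7 CPM in iEtv2 SP (1.86 ± 0.20, adjusted p = 2.29e-05). No gate difference of Epcam was called (adjusted p = 0.518, 0.544 and 0.854).

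Cdh2, which encodes the mesenchymal N-cadherin, fell with the reporter in both gates, from a mean of 416 ± 43.5 to 279 ± 59.3 CPM in DP (-0.58 ± 0.16, adjusted p = 0.0156; SD, n = 3) and from 386 ± 27.7 to 262 ± 55.5 CPM in SP (-0.56 ± 0.16, adjusted p = 0.0225). The DP call was lost without replicate 2 of Etv2-negative DP (adjusted p = 0.0524) or replicate 3 of Etv2-positive DP (0.0597), and the SP call without replicate 1 or 2 of Etv2-negative SP (0.065 and 0.0611), replicate 3 of Etv2-positive SP (0.0765) or the pair of high ribosomal RNA share (-0.36, 0.155). In iEtv2 SP it was at 75.4, 145 and 104 CPM, against 301, 409 and 391 CPM in WT SP (-1.77 ± 0.21, adjusted p = 4.92e-05). Fn1, the matrix protein fibronectin, fell with the reporter in DP, from 6124 ± 509 to 3675 ± 817 CPM (-0.74 ± 0.13, adjusted p = 0.000939), and after induction from 6677 ± 460 to 3975 ± 421 CPM (-0.75 ± 0.14, adjusted p = 0.00107). Neither gene was called between the gates.

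**Figure D4:**
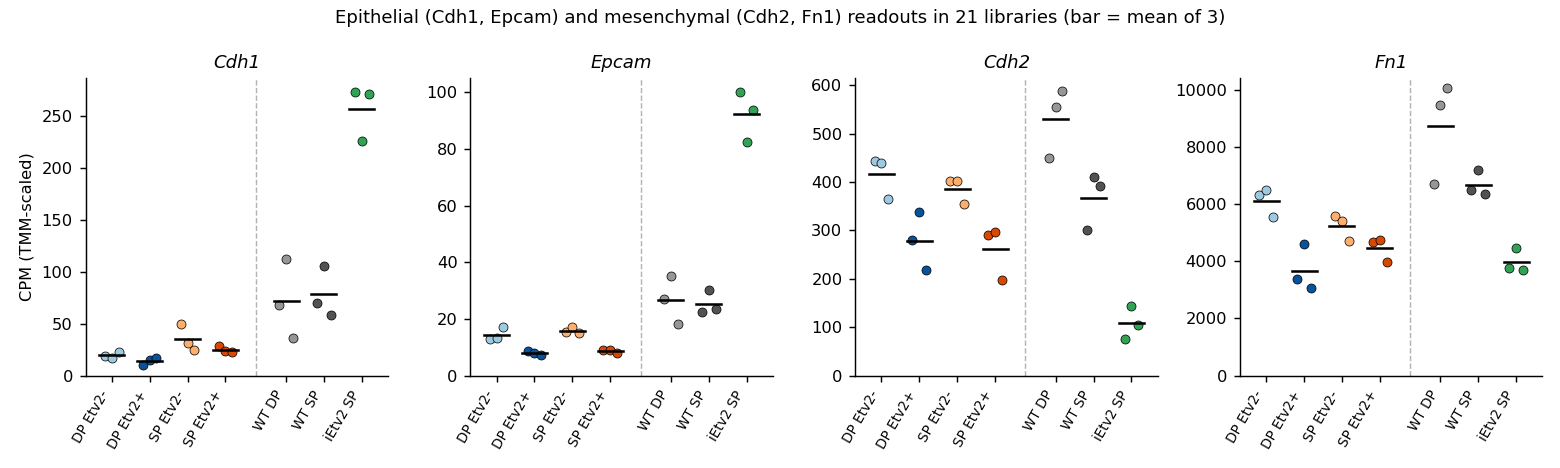
Levels in CPM (y axis, from 0) of the epithelial genes Cdh1 and Epcam and the mesenchymal genes Cdh2 and Fn1 in every library, with bars for the mean of 3 and a dashed line between the sets. The iEtv2 SP libraries hold 226 to 273 CPM of Cdh1 and 82.6 to 100.3 CPM of Epcam, above all others of their set, and 75.4 to 145 CPM of Cdh2, below all others.

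Of 32 junction, keratin and epithelial adhesion genes that include Cdh1 and Epcam, all 32 were tested after Etv2 induction: 20 were higher, 7 lower and 5 not called, with a median log2 difference of 1.03 (0 over all genes). Of all genes tested there, 26.4% were higher and 24.4% lower. Ocln, the tight junction protein occludin, rose 10.4-fold (3.38 ± 0.31, adjusted p = 6.97e-06), and the claudins Cldn3 and Cldn4 by 2.89 ± 0.45 and 2.20 ± 0.32. Dsp, the desmosome protein desmoplakin, went the other way, from 467 ± 58.1 to 94.1 ± 37.9 CPM (-2.31 ± 0.25, adjusted p = 2.33e-05). Epiblast markers, which belong to an epithelial cell type that itself makes E-cadherin, were all higher there too, 8 of 8 with a median of 1.61. Their sum was 70.2 to 125 CPM in WT SP and 334 to 383 CPM in iEtv2 SP, no marker was under 3 counts in every library, and their part in the epithelial result was not tested. Cardiac mesoderm markers, which include Hand1 and Hand2, were lower, 8 of 8, from sums of 735 to 833 CPM down to 30.1 to 55.6 CPM, and endothelial markers were higher, 10 of 10.

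Between the gates the same epithelial genes were higher in SP, 14 of 30 tested without the reporter (1 lower, median 0.62), 5 with it (1 lower, median 0.20) and 11 of 32 in WT (median 0.39). Of all genes, 6.1%, 6.95% and 9.08% were higher in these comparisons. Pkp2, a desmosomal plakophilin, was 2.91-fold and 2.96-fold higher in Etv2-negative and WT SP. Llgl2, a polarity gene (1.48 ± 0.23 and 1.30 ± 0.19), and the keratin genes Krt18 (1.43 ± 0.25 and 1.39 ± 0.26) and, in the reporter line, Krt19 (1.44 ± 0.23) followed. Among Etv2-positive cells the called genes included the junction genes Cdh1 and F11r (0.62 ± 0.12), while Krt8 was lower (-0.58 ± 0.18, adjusted p = 0.0454), a call lost without the pair of high ribosomal RNA share. The count of 14 ranged from 8 to 20 over the 16 alternatives of processing, and epiblast marker sums were lower in SP (76.9 to 124 CPM) than in DP (179 to 276 CPM) without the reporter.

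With the reporter in DP cells 7 of 30 epithelial genes were higher and 6 lower, where 16% and 14.7% of all genes were. The higher ones were led by Llgl2 (4.22-fold), Krt18 (from 88.0 ± 38.9 to 368 ± 55.4 CPM) and Pkp2 (3.84-fold), and the lower ones were led by Ap1m2, an adaptor of epithelial sorting (4.61-fold, from 4.43 ± 0.367 to 0.967 ± 0.250 CPM). In SP cells 1 was higher and 8 lower (13.1% and 12.4% of all genes), among them Ap1m2 (2.2-fold), Epcam and Pkp3 (1.82-fold); without the pair of high ribosomal RNA share 3 were lower. The interaction was called for 7, all lower in SP relative to DP, where 2.45% of all genes were lower and 1.52% higher. Among the 7 were Pkp2 (-2.01 ± 0.44), Krt18 (-1.78 ± 0.34), Llgl2 (-1.73 ± 0.31) and the P-cadherin gene Cdh3 (-1.59 ± 0.41). Without that pair the count was 2. Epiblast marker sums fell with the reporter in DP, from 179 to 276 CPM to 43.1 to 77.1 CPM, and their part in the decreases was not tested.

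Of 30 mesenchymal genes, 28 were tested. In DP cells 14 were higher with the reporter and 3 lower (median 0.47), where 16% of all genes were higher and 14.7% lower. The higher ones were led by Postn (periostin, 6.23-fold, from 0.186 ± 0.149 to 1.19 ± 0.691 CPM), Col1a1 (4.85-fold, from 86.7 ± 57.6 to 421 ± 92.0 CPM), Tagln (3.18-fold) and Cd44 (2.96-fold). The 3 lower ones included Cdh2 and Fn1. In SP cells, where 13.1% of all genes were higher and 12.4% lower, 8 were higher, led by Fbn1 (2.06-fold), Tagln (1.99-fold) and Nes (1.75-fold), and 4 lower, led by Ncam1 (1.95-fold); 1 was lower without the pair of high ribosomal RNA share. The interaction was called for 4: Col1a1 (-2.04 ± 0.47), Cd44 (-0.86 ± 0.21), Pdgfrb (-0.79 ± 0.20) and Sparc (-0.54 ± 0.12), all lower in SP relative to DP, and for 1 gene without that pair. Of all genes, 2.45% were lower in the interaction and 1.52% higher. Markers of fibroblast feeder cells, which include Postn, summed to 2.08 to 3.87 CPM in Etv2-negative DP and 3.93 to 7.93 CPM in Etv2-positive DP, with 2 of 3 tested higher, and to 2.15 to 3.10 CPM and 4.28 to 6.54 CPM in Etv2-negative and Etv2-positive SP. Lum, Dcn, Tnfrsf11b and Fap were under 3 counts in each of these libraries, and the part of feeder cells in the mesenchymal counts was not tested.

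Between the gates the mesenchymal genes were higher in Etv2-negative SP in 6 cases and lower in 1, with Col1a1 2.18-fold and Cd44 1.82-fold higher; 3 were called higher without the pair of high ribosomal RNA share. In Etv2-positive cells 5 were lower in SP, and 3 were called lower without that pair. They were led by Postn (-2.72 ± 0.59) and Col3a1 (-1.95 ± 0.61), both low genes. Postn stood at 1.19 ± 0.691 CPM in DP and 0.18 ± 0.0384 in SP, and Col3a1 at 1.02 ± 0.542 and 0.26 ± 0.171. In WT 5 were higher, among them Col1a1 (2.54-fold), Cd44 (2.18-fold) and Fbn1 (1.91-fold), and 2 lower, among them Ncam1 (1.94-fold). Of all genes, 6.1% were higher and 4.84% lower between Etv2-negative gates, 6.95% and 6.94% between Etv2-positive gates, and 9.08% and 6.76% in WT. After induction 6 of 28 were higher and 11 lower with a median of -0.02, where 26.4% and 24.4% of all genes were. Col1a1 fell 33.7-fold, from 207 ± 34.1 to 6.18 ± 2.05 CPM (-5.08 ± 0.39, adjusted p = 2.25e-06), and the matrix proteoglycan gene Vcan 9.23-fold. Col5a2 was 7.73-fold higher. Lox, which crosslinks collagen, was 10.2-fold higher, from 0.146 ± 0.0968 CPM, near the floor of 3 counts, to 1.54 ± 0.655 CPM.

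**Figure D5:**
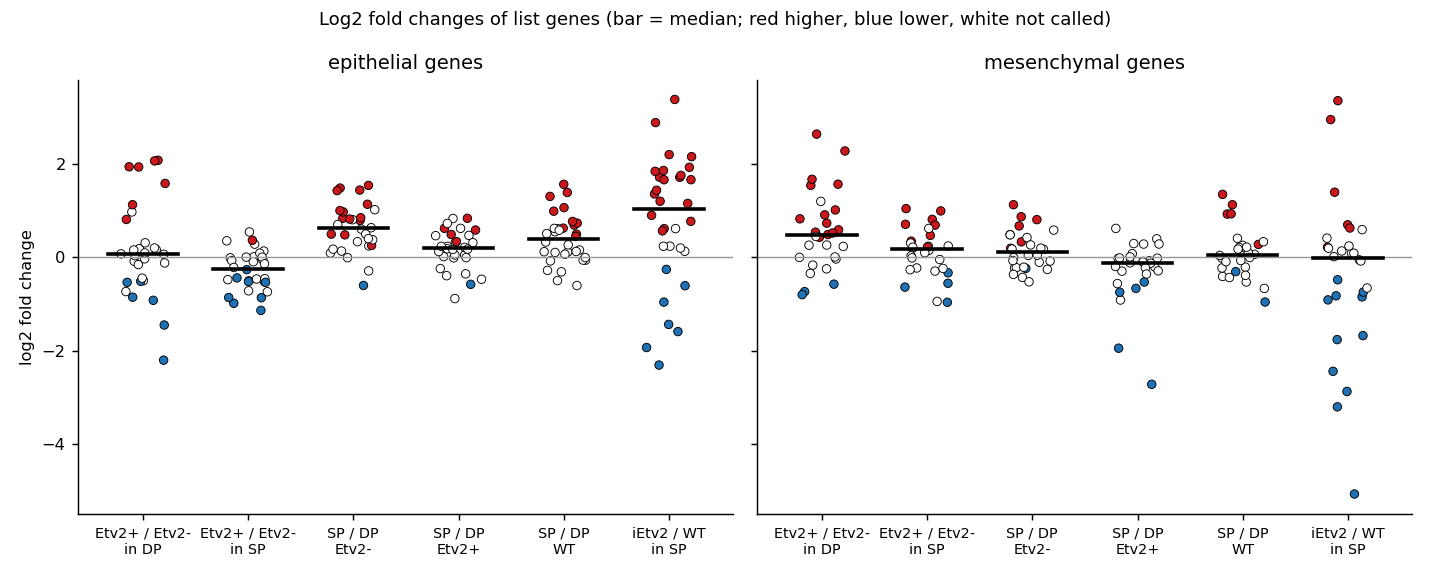
Log2 fold changes (y axis) of the tested epithelial (left) and mesenchymal genes (right) in 6 comparisons; points are genes, bars medians, and red, blue and white mean called higher, called lower and not called. The epithelial median is highest, at 1.03, after Etv2 induction, and the mesenchymal median is highest, at 0.47, with the reporter in DP cells.

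The shares of all genes called are the background of the counts that follow, here and for the next lists. After induction 26.4% were higher and 24.4% lower. With the reporter these shares were 16% and 14.7% in DP and 13.1% and 12.4% in SP. Between the gates they were 6.1% and 4.84% without the reporter, 6.95% and 6.94% with it and 9.08% and 6.76% in WT. In the interaction 1.52% were higher and 2.45% lower. Regulators that keep cells epithelial were tested in 10 of 12 cases. After induction 5 were higher, led by Grhl2 (4.64-fold, from 3.16 ± 1.14 to 14.7 ± 2.34 CPM), the splicing regulator Esrp1 (2.78-fold), Grhl1 (2.38-fold) and Klf5 (1.47-fold). In Etv2-negative SP over DP 5 were higher, led by Ovol2 (3.95-fold, though only 0.590 ± 0.0540 CPM), Esrp2 (2.77-fold), Foxa2 and Elf3 (1.99-fold each). Among Etv2-positive cells 2 were higher in SP (Esrp1, 2.19-fold, and Klf5, 2.1-fold), and in WT 2 were higher (Klf5, 2.49-fold, and Grhl3, 2.18-fold) and 1 lower (Klf4, 1.5-fold). With the reporter in DP Esrp2 was higher (3.65-fold) while Esrp1 (2.52-fold) and Grhl2 (2-fold) were lower; in SP 5 were lower, among them Ovol2, Elf3, Klf4 and Esrp1 (2.86-fold, 2.18-fold, 1.72-fold and 1.68-fold), while without the pair of high ribosomal RNA share 1 was lower and 1 higher. Ovol2 was also the regulator with a called interaction (-2.47 ± 0.59, adjusted p = 0.039), which was lost without that pair.

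Twist factors dimerize with E proteins and Hand factors, and Id proteins hold E proteins away from them; all 9 genes of this kind were tested. Hand2 and Hand1 fell most after induction, from 36.2 ± 12 to 0.694 ± 0.213 CPM and from 489 ± 20.3 to 20 ± 11.4 CPM (-5.69 ± 0.41 and -4.62 ± 0.36, adjusted p = 1.43e-06 and 2.25e-06), with 4 lower and 2 higher in all; Id3 fell 2.33-fold and Id4 rose 2.86-fold. With the reporter in DP Id3 was 1.96-fold and Hand1 1.34-fold higher and Id1 1.52-fold lower. In SP Id4 (2.04-fold) and Id3 (1.35-fold) were higher and 3 were lower, among them Hand2 (1.47-fold) and Hand1 (1.37-fold). Between the gates Id3 was higher in SP without the reporter (1.31-fold) and in WT (1.78-fold), as were Hand1 without the reporter (1.42-fold), Id2 in WT (1.77-fold) and Id4 in WT (2.03-fold) and among Etv2-positive cells (2.05-fold). Lower in SP were Id1 without the reporter (1.34-fold) and Tcf4 with it (1.38-fold). The interaction, where 2.45% of all genes were lower, was called for Hand1, Id3 and Tcf4 (-0.87 ± 0.21, -0.54 ± 0.14 and -0.47 ± 0.12). Without the pair of high ribosomal RNA share none of these 3 interactions was called, nor were Hand1 and Id3 between Etv2-negative gates or Id4 between Etv2-positive gates, and 1 gene in place of 3 was lower with the reporter in SP. Hand1 and Hand2 also belong to the cardiac mesoderm markers.

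Of 20 other transcription factors linked to EMT, 19 were tested. With the reporter in DP 7 were lower and 4 higher, where 14.7% and 16% of all genes were: the forkhead genes Foxc1 and Foxc2 were 7.3-fold and 6.25-fold lower, Mesp1 of nascent cardiac mesoderm 5.81-fold lower (from 203 ± 33.2 to 35.1 ± 15.1 CPM) and Klf8 2.46-fold higher. In SP 5 were lower, among them Mesp1 (6.17-fold), Foxc1 (2.78-fold) and Msx1 (1.55-fold), and 2 higher, among them Foxq1 (1.87-fold); without the pair of high ribosomal RNA share 1 was higher. The gates separated the same kind of gene: Foxc1 was 4.24-fold and 6.31-fold lower in SP without the reporter and in WT, Foxc2 5.85-fold and 4.98-fold, Gsc 3.58-fold and 2.72-fold and Mesp1 2.77-fold and 3.71-fold. These gates counted 6 and 7 lower and 2 higher each, and the gate with the reporter 3 lower (Mesp1, 2.94-fold, Gsc, 2.87-fold, and Msx1, 1.51-fold). The interaction was called for 4, Foxc2 (3.09 ± 0.31), Sox4 (0.67 ± 0.15), Msx2 (-0.94 ± 0.21) and Msx1 (-0.81 ± 0.16), and for 1 in each direction without the pair of high ribosomal RNA share. Of all genes, 1.52% were higher in the interaction and 2.45% lower. After induction 10 were lower and 5 higher, led by Msx2 (30.1-fold lower, from 153 ± 11.4 to 5.10 ± 1.54 CPM), Mesp1 (18.1-fold), Tbx3 (8.94-fold) and Msx1 (8.29-fold).

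TGF-beta is the classical inducer of Snail genes, and kinases, ubiquitin ligases and corepressors control the Snail protein; 27 genes of this kind were tested. Tgfb2 was higher in SP than DP without the reporter (2.19-fold) and in WT (2.69-fold, from 61.9 ± 14.3 to 167 ± 15.4 CPM) and 22.2-fold lower after induction (to 7.51 ± 2.94 CPM, adjusted p = 3.31e-07). The receptor genes Tgfbr2 and Tgfbr3 rose 6.24-fold and 5.45-fold after induction, and Fbxl14, a ligase that targets Snail protein, fell 2.17-fold; in all 6 of 27 were higher and 9 lower, where 26.4% and 24.4% of all genes were. In DP cells with the reporter, where 16% of all genes were higher and 14.7% lower, 6 were higher, led by Lats2 (2.13-fold), Tgfb2 (2.03-fold) and Ajuba (1.73-fold), and 7 lower, led by Pak1 (1.54-fold). In SP cells 3 were higher, led by Tgfbr3 (2.46-fold) and Rcor1 (1.27-fold), and 4 lower, led by Pak1 (1.54-fold) and Tgfb1 (1.27-fold). The gates held 4 higher and 2 lower without the reporter, 2 and 1 with it (Tgfbr3, 1.96-fold, and Rcor1, 1.25-fold, higher; Ctbp1, 1.13-fold, lower) and 6 and 1 in WT. The interaction, where 2.45% of all genes were lower, was called for Lats2 (-1.14 ± 0.20) and the inhibitory Smad7 (-0.51 ± 0.10). Without the pair of high ribosomal RNA share 1 gene in place of 3 was higher with the reporter in SP, 1 in place of 2 was called in the interaction, and none of the 3 calls between Etv2-positive gates was left. The medians of this list lay between -0.02 and 0.01 in all 7 comparisons.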

How the data were processed

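Total RNA of 21 libraries was sequenced (TruSeq Stranded Total RNA, per the labels' protocols). The deposited values are unnormalized counts for each Ensembl gene ID. The authors counted with featureCounts on mm10, per the submitters' processing notes; aligner, annotation and strand setting are not given in the sources used here. The 9 single files of the second set hold 4 summary entries of the kind STAR writes, so their tool is in doubt; these entries (3.95 to 5.25% unmapped, 7.34 to 8.75% multimapping, 5.04 to 7.91% without feature, 4.30 to 4.91% ambiguous) were left out. Of 55487 IDs, 55227 were named from GENCODE M21.

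Each set was fitted alone in R 4.3.3 with edgeR 4.0.16 (TMM scaling, filterByExpr, quasi-likelihood F test, two-sided, a term per group), with Benjamini-Hochberg adjustment over all genes tested and calls below 0.05; all 8 members passed the filter in both sets. The SE is the log2 fold change divided by the root of F. The fit was tested on simulated data. Alternatives were DESeq2 1.42.0, RLE and upper-quartile scaling, no filter, 1 CPM in 3 libraries, a replicate block, only the groups compared, removal of mitochondrial and ribosomal RNA genes, and leaving out each library. Leaving out the pair of high ribosomal RNA share, or all reporter-line libraries numbered 3, was added after seeing the data. Same-numbered libraries were taken as paired where every correlation of deviations from group means was over 0.1: the reporter in DP (0.175 to 0.342) and in SP (0.143 to 0.268). The gates missed this without the reporter (0.0962 to 0.334), with it (0.0764 to 0.268) and in WT (0.0941 to 0.345), as did iEtv2 against WT SP (-0.0787 to 0.165).

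The members and gene lists were chosen with earlier results of these data known. The text names the 8 members, Cdh1, Cdh2, Epcam and Fn1 in each comparison, up to 4 called genes of a list with the largest change, the 2 genes most like each member, and Etv2, Pdgfra and Kdr as the check of the sort; some genes this rule names are not reported here. Some genes stand on 2 lists: Nes (mesenchymal, neural), Postn (mesenchymal, feeder), Foxa2 and Gsc (regulators, endoderm), Hand1 and Hand2 (bHLH, cardiac), Gata4 (endoderm, cardiac). A floor of 3 counts is 0.0915 to 0.134 CPM and, like the counting interval, covers counting error only. Of 50-base transcript windows, 99.5 to 100% were unique to each member. Versions of other software were Python 3.11.15, pandas 2.3.3, scipy 1.17.1 and matplotlib 3.10.9.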

Additional observations from a re-analysis of the deposited data

Results flagged for a closer look

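The reporter effect on Vim differed between the gates: the SP difference minus the DP difference was -0.62 on the log2 scale by the interaction test (adjusted p = 0.0337), a call lost without any 1 of 9 of the 12 libraries (adjusted p = 0.053 to 0.098) and without the pair of high ribosomal RNA share (0.118). The gate difference of Vim was -0.17 among Etv2-positive cells, where it was not called (adjusted p = 0.273) although every SP library lies below every DP library, and 0.64 in WT, where every SP library lies above. Among Etv2-negative cells it was 0.45, of the same sign as in WT. WT cells were not split by Etv2, and the difference between -0.17 and 0.64 was not tested.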

How the results depend on the processing

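Over 904 alternative values of the 8 members in 7 comparisons, 803 kept direction and side of the threshold, 45 lost a call, 36 gained one and 20 changed sign; no called value changed sign. The calls of Snai1 with the reporter in both gates, between the gates without it and in WT, and after induction held in every alternative run, as did those of Twist1 between all gates and after induction, Zeb2 with the reporter in SP and between Etv2-positive gates, Zeb1 with the reporter in DP and after induction, Twist2 and Prrx1 after induction, and Vim with the reporter in DP and in WT.

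Sign changed for Twist2 between Etv2-negative gates with the replicate block (0.01) and without the libraries numbered 3 (0.29), and without the latter for Prrx1 between Etv2-negative gates (0.23), Etv2-positive gates (0.02) and in the interaction (-0.21). With each library left out, Prrx1 ranged from -0.73 to 0.05 with the reporter in DP, -0.34 to 0.02 in SP, -0.59 to 0.19 and -0.21 to 0.16 between Etv2-negative and Etv2-positive gates, -0.21 to 0.57 in the interaction and -0.15 to 0.15 in WT. Snai2 and Twist2 between Etv2-negative gates ranged from -0.02 to 1.5 and -0.28 to 0.34, and Zeb1 in the interaction from -0.20 to 0.02. Cdh2 between Etv2-positive gates was 0.08 without the pair of high ribosomal RNA share and -0.24 to 0.08 with each library left out, and in WT Cdh1 ranged from -0.20 to 0.57 and Epcam from -0.28 to 0.15.

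Members called with the reporter in SP rose from 3 to 5 with the replicate block. Between Etv2-positive gates 5 became 2 without the pair of high ribosomal RNA share, and 2 to 5 with each library left out. In the interaction 1 became 2 with DESeq2, 3 without the libraries numbered 3, 0 without the pair of high ribosomal RNA share, 6 with no filter, 5 with the block and 0 to 3 with each library left out.

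Genes called with the reporter in SP went from 4504 to 2709 and 2459 without the libraries numbered 3 and without the pair. Between Etv2-positive gates 2456 became 1251 and 1106 in these settings, 1324 with only the groups compared and 1342 to 2403 with each library left out. Between Etv2-negative gates and in WT, 1936 and 2580 became 787 to 2268 and 1509 to 2683 with each library left out, lowest without replicate 1 of Etv2-negative DP and of WT SP. In the interaction 702 became 1289 with DESeq2, 119 without the pair, 1740 with no filter, 1537 with the block and 50 to 1268 with each library left out, lowest without replicate 2 and highest without replicate 3 of Etv2-negative DP. Fewer libraries mean fewer residual degrees of freedom; other causes were not tested.

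Same-numbered WT libraries missed the pairing criterion (correlations 0.0941 to 0.345). By the labels they share only a number. Between the WT gates the block called Zeb2 higher in SP (0.38, adjusted p = 0.048) and 4 members in all. Among the 4 readouts it also called Fn1 higher in Etv2-positive SP over DP (0.29, 0.0215) and lower with the reporter in SP (-0.23, 0.0398) and in WT SP (-0.37, 0.0359), and Cdh2 lower in WT SP (-0.54, 0.00667). Other block calls of members are given beside the results, and no other call of a member or readout changed with the block. At its depth, Twist2 in iEtv2 SP rests on 6 counts.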

Other observations

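Blood markers (9 genes) summed to 15.9 to 20.3 CPM in Etv2-negative DP and 178 to 305 CPM in Etv2-positive SP. With the reporter in SP 8 of the 8 tested were higher, where 13.1% of all genes were. After induction 3 of 7 were higher and 4 lower. Of all genes, 26.4% were higher and 24.4% lower after induction, here and for the lists that follow. Ptprc, the pan-leukocyte gene, was under 3 counts in every library. Markers of definitive and visceral endoderm (10 genes) summed to 213 to 402 CPM in the reporter line and to 79.4 to 125 CPM in iEtv2 SP against 229 to 271 CPM in WT SP, with 1 of 8 tested higher and 2 lower. Gata4, which is also a cardiac mesoderm marker, was among the lower ones. Markers of neuroectoderm and neural crest (8 genes, Nes among them) were tested in 7 cases in the second set, where 4 were higher and 2 lower after induction (141.6 to 164 CPM against 97.4 to 125 CPM).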
